A study of Rattus norvegicus with 9 samples.

Results

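The cytosolic ribosomal protein genes were followed in rat liver as 1 module. Members were taken by name: a probe's RefSeq accession was mapped to its current gene symbol, and symbols of large subunit proteins (Rpl), small subunit proteins (Rps) and the stalk proteins (Rplp) were kept. The Rps6k kinases, which only carry a similar name, were left out (5 probes). A probe entered where all 3 arrays of some group carried the software's mark for signal well above background. The rule gave 75 genes with 108 probes, of 9604 named genes and 25369 probes that passed the same filter. A second Rpl28 probe was the only probe with a member's name that failed the filter, and it was above background on no array. The 75 genes comprised 40 of the large subunit, 27 of the small subunit, 3 of the stalk and 5 paralogs (Rpl22l1, Rpl36al1, Rpl37al2, Rpl37l1 and Rps12l4). Rpl26, Rpl37, Rpl37a, Rps4y2, Rps9 and Rps16 had no matched probe and were not analysed here.

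The livers came from 9 male Wistar rats, 1 single-colour Agilent array per rat. The control group held 3 rats given 0 Gy and no HSC, the TBI group 3 rats given 6.5 Gy of total-body irradiation from a cobalt source, and the HSC + TBI group 3 rats given Hong Shan Capsule (HSC), a herbal preparation, by stomach tube on 3 days before the same irradiation. RNA was taken 24 h after exposure. Sources conflict on the daily HSC dose, which is 30 mg/kg in the samples' treatment protocol and 10 g/kg in the series design. No rats given HSC without irradiation were on these arrays. Liver pieces hold many cell types, so fewer cells of a type and less RNA per cell cannot be told apart.

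A cytosolic ribosome joins a small subunit, which reads the mRNA, to a large subunit, which forms the peptide bond, and nearly every protein of both comes from its own gene. The mRNAs of these genes begin with a tract of pyrimidines, the 5′ terminal oligopyrimidine (TOP) motif, through which the kinase mTOR regulates their translation. Hepatocytes hold large numbers of ribosomes because they export the plasma proteins. When ribosome assembly is disturbed, free Rpl5 and Rpl11 bind Mdm2 and stabilise p53, the factor that irradiation also activates through DNA damage.

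The start sites of the members whose results are given in most detail are shown first, since the start is where the TOP tract lies. Each window is 40 bases of RefSeq sequence (build GRCr8), from 20 bases before the annotated start to the 20 bases from it on, 5′ to 3′ on the gene's strand. Capitals mark the unbroken run of C and T that holds the annotated start. On the plus strand were Rpl19 at chr10:83519044-83519083, Rpl4 at chr8:73566457-73566496, Rpl13 at chr19:68062494-68062533 and Rps19 at chr1:89608668-89608707. Rps23, at chr2:23814497-23814536 on the plus strand, is added because it had the longest run of all members. On the minus strand were Rpl3 at chr7:113507971-113508010 and Rplp0 at chr12:46718371-46718410.
Rpl19: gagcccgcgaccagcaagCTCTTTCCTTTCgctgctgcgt
Rpl4: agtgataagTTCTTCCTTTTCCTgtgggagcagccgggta
Rpl13: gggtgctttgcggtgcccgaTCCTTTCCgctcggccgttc
Rps19: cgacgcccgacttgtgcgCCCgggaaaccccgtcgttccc
Rps23: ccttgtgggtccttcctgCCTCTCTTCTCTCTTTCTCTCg
Rpl3: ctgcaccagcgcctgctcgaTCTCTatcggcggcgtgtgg
Rplp0: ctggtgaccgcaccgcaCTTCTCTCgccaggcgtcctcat

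The run held 12 bases in Rpl19, 14 in Rpl4, 8 in Rpl13, 3 in Rps19, 21 in Rps23, 5 in Rpl3 and 8 in Rplp0. It counts bases before the annotated start as well as those from it on, and in Rpl4 most lay before it. Its length is therefore not the length of the tract in the mRNA. Of the 75 members, 59 had an entry in the promoter table, with 60 promoters in all. The annotated start lay in a run of at least 5 pyrimidines in 36 of the 60 promoters (60.0%), against 12.0% of all 33469 promoters and 16.9% of the 65 promoters of mitochondrial ribosomal protein genes. The letters CTTTC occurred on the gene's own strand within 20 bases of the start in 48.3% of member promoters and in 4.97% of all promoters. On the opposite strand these shares were 1.67% and 5.07%. The member promoters thus held the letters more often on the strand with the same letters as the mRNA. These matches describe the sequence and were not tested as sites.

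**Figure D1:**
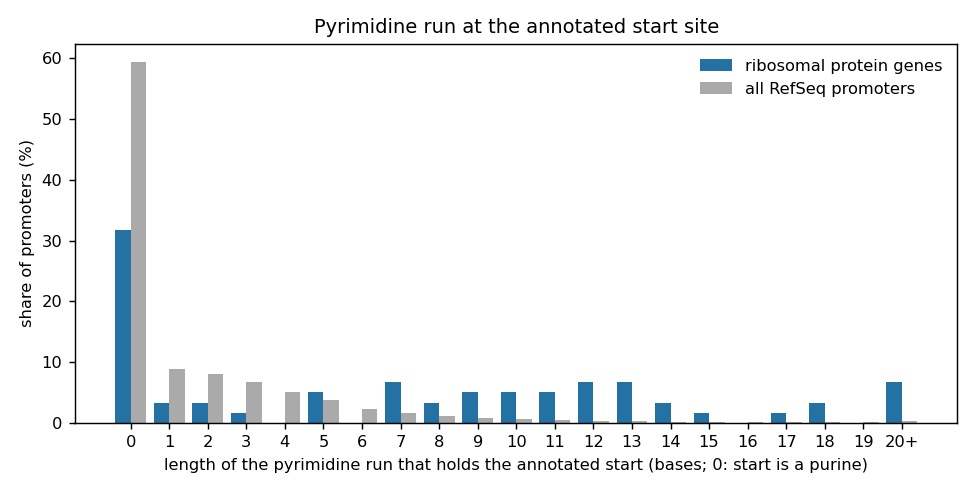
Share of promoters (%, vertical axis) by the length in bases of the pyrimidine run that holds the annotated start (horizontal axis, 0 where the start is a purine, 20 and above pooled) for the 60 member promoters (blue) and all 33469 RefSeq promoters (grey). Runs of at least 5 bases held 60.0% of the member starts and 12.0% of all starts.

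All 8 hepatocyte markers fixed for the check of the tissue, among them Alb, passed the filter. The log2 of their summed signals, in which the brightest markers weigh most, was 20.78 to 20.82 among controls. It was 20.71 to 20.86 after TBI and 20.75 to 20.83 after HSC + TBI. The share of probes above background was highest on the TBI 3 array (69.5%, the other arrays 56.6% to 66.3%), so module medians that rest on it are also given without it. The 3 controls shared 1 slide, the 3 TBI rats another, and the HSC + TBI rats lay on 2 further slides, so slide and group cannot be told apart. The log2 of the summed lymphocyte marker signals was lower after irradiation (9.36 to 9.72 in the controls, 8.40 to 9.03 after TBI, 8.33 to 8.72 after HSC + TBI). Some of these markers passed the filter through the controls alone. The part of these cells in the results below was not tested.

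The members were bright and their signals repeated closely between rats. The median log2 signal of the 75 genes was 14.83, 14.73 and 14.71 in the controls, 14.89, 14.96 and 14.85 after TBI, and 14.92, 14.98 and 14.95 after HSC + TBI. By these medians each irradiated rat lay above every control, TBI 3 and control 1 by the narrowest gap. With each array shifted to a common 75th percentile instead of quantile normalization, TBI 3 lay below control 1 (14.75 and 14.84). A member's SD over the 3 rats of a group had a median of 0.098 among the controls, 0.11 after TBI and 0.076 after HSC + TBI (log2), against 0.17, 0.24 and 0.15 over all tested probes. Those probes were mostly far dimmer, with median log2 signals of 7.01 to 7.03 per array. No SD was taken over probes as bright as the members, so the close repeats cannot be called particular to the module. With 1 exception, Rps12l4, the brightest probe of each member was above background on all 9 arrays, and no spot was saturated.

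Within the groups the members shared shifts between rats. Against the mean of the 3 controls, 69 of 75 members were higher in control 1, 14 in control 2 and 17 in control 3, with median deviations of 0.096, -0.038 and -0.049 (log2). In TBI 1, TBI 2 and TBI 3 the numbers above the control mean were 68, 66 and 47, with medians of 0.20, 0.21 and 0.069. In HSC + TBI 1, 2 and 3 they were 63, 70 and 67, with medians of 0.15, 0.21 and 0.22. Control 1 was the highest control and TBI 3 the lowest irradiated rat, and by this measure TBI 3 lay below control 1. Over all tested probes the same medians ran from -0.027 to 0.054.

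**Figure D2:**
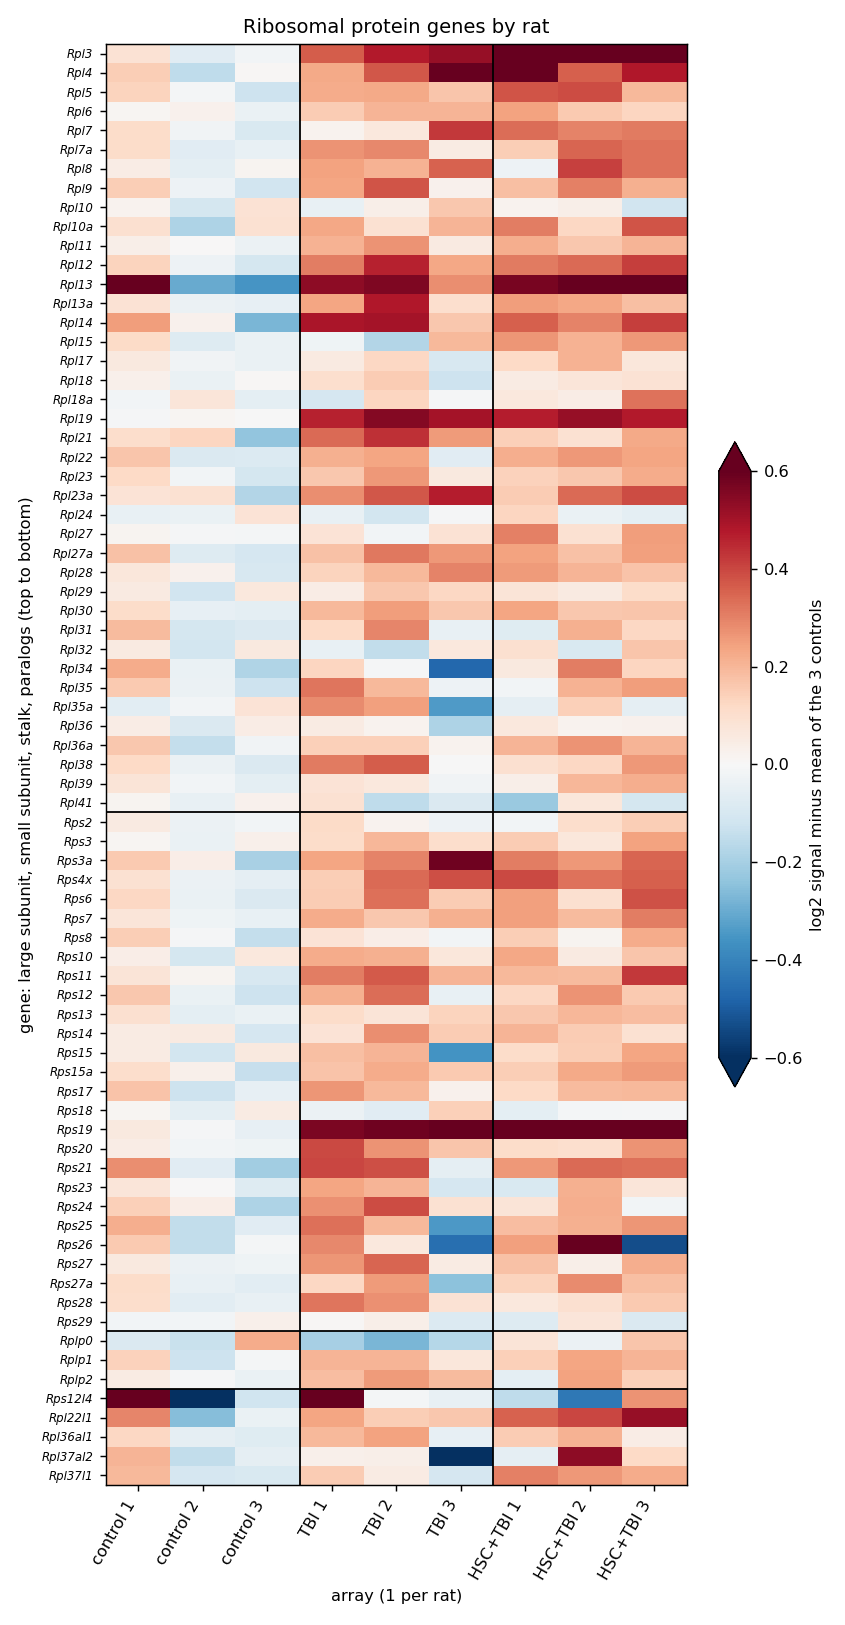
Log2 signal of each of the 75 members (rows, grouped by large subunit, small subunit, stalk and paralogs) in each of the 9 rats (columns), as the difference from the mean of the 3 controls (colour, log2, ends of the scale pooled). Rps19, Rpl19 and Rpl3 were high in all 6 irradiated rats, while TBI 3 showed 47 of 75 members above the control mean against 68 and 66 in TBI 1 and TBI 2.

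The first comparison asked how TBI by itself changed the module. Most members were slightly higher in TBI than in control rats: the median log2 difference was 0.17 (1.12-fold), 65 of 75 were above 0, and the quartiles were 0.043 and 0.24. Over all 25369 tested probes the median was -0.0061 and 49.3% were above 0, and over the 663 probes at least as bright as the members' lower quartile the median was 0.027 with 54.1% above 0. A member was called where limma's p, adjusted by Benjamini-Hochberg, was under 0.05 and the difference was 1.5-fold or more, and only Rps19 met both. This is 1 of 75 members where 7.25% of all tested probes were called (3.54% as higher and 3.71% as lower), so calls were no more common among the members than elsewhere. Without the fold minimum 3 members passed the adjusted p, all higher (Rps19, Rpl19 and Rpl3), where 3.88% of tested probes passed as higher and 4.21% as lower. At an unadjusted p under 0.05 there were 12 higher and 0 lower members, where 12.3% and 13.2% of tested probes lay in each direction. The 3 TBI rats lay above all 3 controls in 25 members and below them in 1 (Rplp0), where 13.3% and 15.6% of tested probes did. Without TBI 3 the median was 0.22 with 68 members above 0, and the members without overlap numbered 45 higher and 2 lower (21.9% and 22.2% of tested probes). Without control 1 the median was 0.22 with 66 above 0, and 48 were higher and 1 lower without overlap (18.6% and 19.5%).

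The classes lay close together. The median log2 difference after TBI was 0.17 in the large subunit (34 of 40 above 0), 0.17 in the small subunit (25 of 27), 0.16 in the stalk (2 of 3) and 0.13 in the paralogs (4 of 5). The paralogs count Rps12l4, a dim gene that passed the filter through the TBI group alone. Differences between the classes were not tested. Of the 10 members below 0 none was called, and they reached -0.22 (Rplp0).

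The second comparison set HSC + TBI against the same 3 controls, so it shares them with the first and does not repeat it independently. The median log2 difference was 0.18 (1.14-fold), with quartiles of 0.13 and 0.25 and 70 of 75 members above 0. Over all tested probes the median was 0.048 with 56.5% above 0, and over the 663 bright probes 0.043 with 57.5%. Limma called Rps19 and Rpl3, both higher, which is 2 of 75 members where 3.23% of all tested probes were called (1.19% as higher and 2.05% as lower). Rpl19 was the third member to pass the adjusted p without a fold minimum, where 1.29% of tested probes passed as higher and 2.13% as lower. At an unadjusted p under 0.05 there were 13 higher and 0 lower members, where 10.5% and 9.1% of tested probes were. All 3 HSC + TBI rats lay above all controls in 38 members and below them in 0, where 18% and 13.7% of tested probes did. Without control 1 the median was 0.24, 69 members were above 0 and 54 lay above both other controls (26.6% of tested probes).

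By class, the median after HSC + TBI was 0.20 in the large subunit (38 of 40 above 0), 0.16 in the small subunit (25 of 27), 0.11 in the stalk (3 of 3) and 0.20 in the paralogs (4 of 5). The size depended on the scaling. Under the 75th percentile shift the member median was 0.39, with 74 of 75 above 0, while the median of all tested probes was 0.052. For TBI against control the member median under that shift was 0.22, beside 0.031 for all tested probes.

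The third comparison, HSC + TBI against TBI, asked whether HSC pretreatment changed the module in irradiated rats. No member was called, and limma's smallest adjusted p was 0.319 (Rplp0), where 0.796% of tested probes were called (0.233% as higher and 0.564% as lower). By their brightest probes 0 members passed an unadjusted p under 0.05, where 8.38% of tested probes passed as higher and 7.87% as lower, and 1 of the 108 member probes did, a dim second probe of Rpl15. Of the 663 bright probes 0 were called, and only 16 higher and 17 lower ones passed an unadjusted p under 0.05. The methods' t-test called 0 with or without adjustment. The median log2 difference was 0.020 with 46 of 75 above 0, beside 0.058 and 58.7% over all tested probes. Over the 663 bright probes it was 0.030 with 57.8%. All 3 HSC + TBI rats lay above all TBI rats in 9 members and below them in 1 (Rpl21), where 12.7% and 8.74% of tested probes did. Of the 663 bright probes 50 and 53 did. The balance of higher and lower members moved with TBI 3 and with the scaling. Without TBI 3 the median was -0.0082 with 33 members above 0 and 11 higher and 11 lower without overlap (22% and 15.9% of tested probes), and under the 75th percentile shift it was 0.20 with 72 above 0, against 0.041 for all tested probes.

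**Figure D3:**
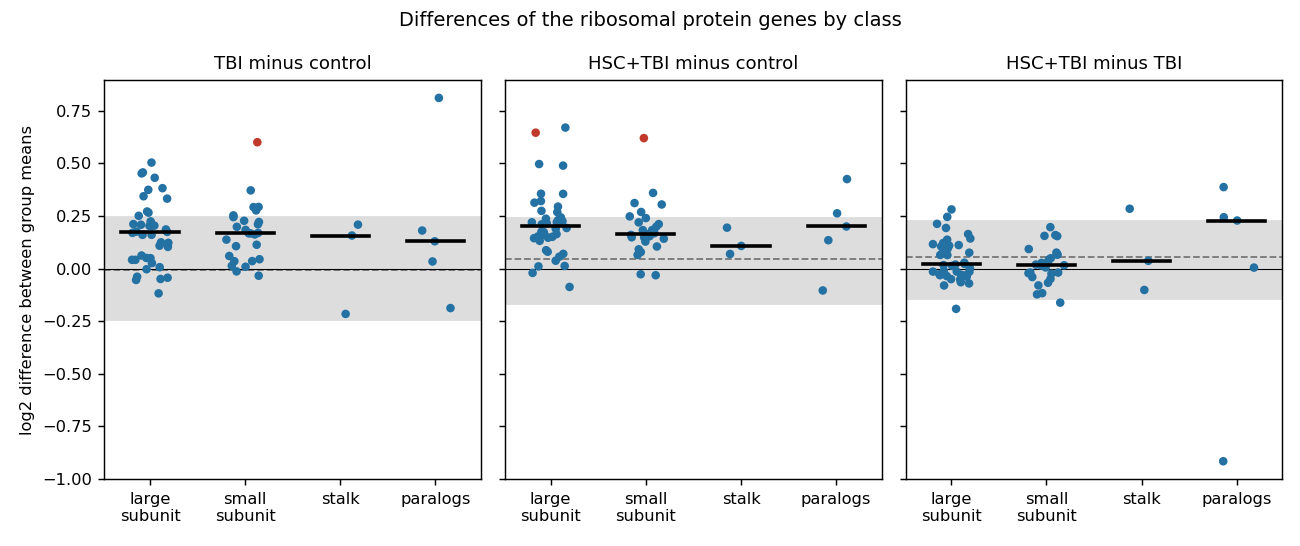
Log2 difference between group means (vertical axis) of each member by class, for the 3 comparisons (panels), with called members in red, other members in blue and the class median as a black bar. The grey band and dashed line are the quartiles and median of all 25369 tested probes, and the member medians of 0.17 and 0.18 against control lay above that line while the median of 0.020 for HSC + TBI minus TBI lay below it.

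Rps19 (gene ID 29287), a small subunit protein needed for maturation of the small subunit's RNA and mutated in Diamond-Blackfan anaemia, differed most clearly. Its log2 signals were 14.44, 14.37 and 14.33 in the controls, 14.95, 14.96 and 15.04 after TBI, and 15.01, 15.00 and 15.00 after HSC + TBI. All irradiated rats were above all controls, and the irradiated groups overlapped. Rps19 rose by 0.60 (log2, SE 0.096, 1.52-fold, adjusted p = 0.00899 by limma) after TBI and by 0.62 (SE 0.096, 1.54-fold, adjusted p = 0.0125) after HSC + TBI. HSC + TBI and TBI rats differed by 0.020 (adjusted p = 0.939). The change lay just past the 1.5-fold minimum: without control 3 or TBI 3 it was 0.58 and 0.57 after TBI (adjusted p = 0.0387 and 0.0147), under that minimum. After HSC + TBI the adjusted p was 0.0558 without control 2, 0.0569 without control 3, 0.0671 without HSC + TBI 1 and 0.0566 without HSC + TBI 2.

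Rpl3 (gene ID 300079), a large subunit protein near the peptidyl transferase centre, had log2 signals of 12.20, 12.05 and 12.10 in the controls, 12.48, 12.59 and 12.64 after TBI, and 12.73, 12.80 and 12.75 after HSC + TBI. The 3 groups did not overlap, with HSC + TBI highest. After HSC + TBI Rpl3 rose by 0.65 (SE 0.10, 1.57-fold, adjusted p = 0.0141 by limma). After TBI the difference was 0.45 (SE 0.10, 1.37-fold, adjusted p = 0.0334), below the fold minimum. HSC + TBI exceeded TBI by 0.19, which was not called (adjusted p = 0.400). With a rat left out, the adjusted p after TBI ranged from 0.0422 to 0.102. The call after HSC + TBI was lost without control 2, control 3, HSC + TBI 1 or HSC + TBI 2, with adjusted p values of 0.0636, 0.0604, 0.0658 and 0.0645.

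Rpl19 (gene ID 81767), another large subunit protein, had log2 signals of 15.00, 15.01 and 15.00 in the controls, 15.47, 15.55 and 15.50 after TBI, and 15.47, 15.53 and 15.48 after HSC + TBI. The controls stood apart from both irradiated groups, which overlapped. The difference was 0.50 after TBI (SE 0.094, 1.42-fold, adjusted p = 0.0164 by limma) and 0.49 after HSC + TBI (SE 0.094, 1.40-fold, adjusted p = 0.0308). A second, dimmer Rpl19 probe differed by 0.54 (adjusted p = 0.0145) and 0.61 (adjusted p = 0.0139), and this last value was called. With any rat left out the difference of the brightest probe stayed between 0.48 and 0.53 after TBI and between 0.47 and 0.50 after HSC + TBI. Its adjusted p after TBI was 0.0515 without control 2, 0.0546 without control 3 and 0.0513 without TBI 2. After HSC + TBI it was between 0.0646 and 0.116 without any 1 of the controls or HSC + TBI rats.

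Rpl4 (gene ID 64302), a large subunit protein that lines the peptide exit tunnel, had log2 signals of 12.31, 12.01 and 12.17 in the controls, 12.39, 12.54 and 12.85 after TBI, and 12.81, 12.52 and 12.64 after HSC + TBI. Both irradiated groups lay above the controls without overlap but with wider spread. The differences of 0.43 (SE 0.15) and 0.50 (SE 0.15) did not pass (adjusted p = 0.126 and 0.125 by limma). Without TBI 3, the highest TBI rat, the difference after TBI was 0.30.

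Rpl13 (gene ID 81765), a further large subunit protein, turned on 1 control. Its log2 signals were 15.47, 14.51 and 14.45 in the controls, 15.34, 15.37 and 15.08 after TBI, and 15.38, 15.59 and 15.46 after HSC + TBI. Control 1 lay within the range of the irradiated rats and the other controls below all of them. The differences of 0.46 and 0.67 were not called (adjusted p = 0.299 and 0.195 by limma). Without control 1 they were 0.79 (adjusted p = 0.0247) and 0.9996 (adjusted p = 0.0120), both called. The second Rpl13 probe differed by 0.12 and 0.18, the widest disagreement between probes of a member in both comparisons with control.

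**Figure D4:**
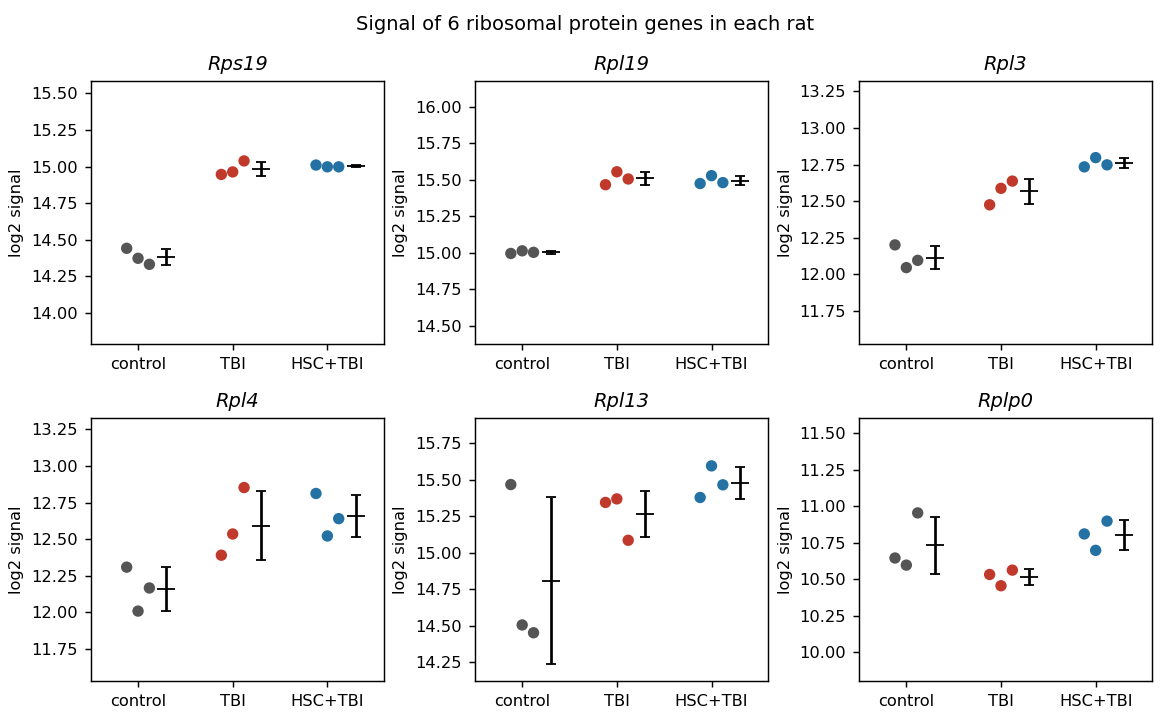
Log2 signal (vertical axis, the same span in each panel) of 6 members in each rat (points), with the group mean and SD of the 3 rats beside them (bars). All 6 irradiated rats exceeded the controls in Rps19, Rpl19, Rpl3 and Rpl4, control 1 stood with the irradiated rats in Rpl13, and the TBI rats were lowest in Rplp0.

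The stalk proteins recruit the elongation factors to the large subunit, with Rplp0 as the base and Rplp1 and Rplp2 as its partners. Rplp0 had log2 signals of 10.65, 10.60 and 10.95 in the controls, 10.53, 10.46 and 10.56 after TBI, and 10.81, 10.70 and 10.90 after HSC + TBI. The TBI rats lay below every other rat, and HSC + TBI overlapped with control. The difference was -0.22 after TBI (SE 0.13, adjusted p = 0.329 by limma) and 0.28 between HSC + TBI and TBI (adjusted p = 0.319). Its partners did not share that pattern: Rplp1 differed by 0.16 and Rplp2 by 0.21 after TBI (adjusted p = 0.412 and 0.283).

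Rpl5, Rpl11 and Rpl23, the large subunit proteins known to bind Mdm2, are of interest because p53 is active in irradiated tissue. Rpl5 had log2 signals of 13.93, 13.78 and 13.67 in the controls, 14.02, 14.02 and 13.96 after TBI, and 14.17, 14.18 and 13.99 after HSC + TBI. Both irradiated groups lay above the controls without overlap, by 0.20 and 0.32 (adjusted p = 0.301 and 0.170 by limma). The 3 Rpl5 probes differed by 0.20 to 0.28 after TBI and by 0.32 to 0.47 after HSC + TBI.
Rpl11 had log2 signals of 14.95, 14.91 and 14.87 in the controls, 15.12, 15.18 and 14.96 after TBI, and 15.13, 15.07 and 15.11 after HSC + TBI. The irradiated rats again lay above the controls, TBI 3 by the smallest gap, with differences of 0.18 and 0.19 (adjusted p = 0.324 and 0.345). Rpl23 differed by 0.16 and 0.17 (adjusted p = 0.399 and 0.433), with TBI 3 inside the range of the controls.

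Rps6, the small subunit protein that S6 kinase phosphorylates, differed by 0.21 after TBI and 0.24 after HSC + TBI (adjusted p = 0.321 and 0.325 by limma). Rps3, which also has a role in DNA repair, differed by 0.14 and 0.15 (adjusted p = 0.429 and 0.449). In both genes the direction was that of the module and the size close to its median.

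The paralogs are encoded by separate genes that resemble a core member. Rpl22l1 had log2 signals of 10.94, 10.39 and 10.61 in the controls, 10.88, 10.79 and 10.80 after TBI, and 11.00, 11.05 and 11.16 after HSC + TBI. The HSC + TBI rats lay above all other rats, and TBI overlapped with control. The differences were 0.18 after TBI and 0.43 after HSC + TBI (adjusted p = 0.476 and 0.161 by limma), beside 0.13 and 0.24 for its parent Rpl22. A second, dimmer Rpl22l1 probe differed by 0.37 and 0.59 (adjusted p = 0.1805 and 0.0822 by limma), and on it TBI did not overlap with control. Rpl36al1 differed by 0.13 and 0.14, and its parent Rpl36a by 0.10 and 0.23. A second Rpl36al1 probe differed by -0.091 and 0.034. Rpl37l1 differed by 0.034 and 0.26. Rpl37al2 differed by -0.19 and 0.20, with TBI 3 at 10.63 below the other rats (11.11 to 11.80). With each rat left out in turn, its difference after TBI ranged from -0.30 to 0.032. None of these values passed the test.

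Rps12l4 was dim. It was above background on the 3 TBI arrays and on no other array, so it entered the list through the TBI group. Its measured log2 signals were 3.73, 2.34 and 2.86 in the controls, 5.47, 2.97 and 2.93 after TBI, and 2.82, 2.55 and 3.25 after HSC + TBI. TBI 1 stood apart, and the groups overlapped. The TBI mean of 3.79 was below the bound for the controls, the lowest signal marked above background on their arrays (mean 3.85), so no fold is given against control. Since the probe passed the filter through the TBI group alone, no comparison is drawn from its level by itself. Rps12l4 does remain in the counts and medians of the module, of the paralogs and of the sets by start-site sequence below. Keeping only probes above background on all 9 arrays leaves it out. Among those, 64 of 74 members were above 0 after TBI (median 0.17) and 70 of 74 after HSC + TBI (median 0.18). The parent gene Rps12 differed from control by 0.17 after TBI and 0.18 after HSC + TBI.

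Rpl34 and Rpl15 were among the members with the largest differences between HSC + TBI and TBI. Rpl34 had log2 signals of 13.71, 13.57 and 13.11 after TBI and 13.64, 13.88 and 13.71 after HSC + TBI, a difference of 0.28 (adjusted p = 0.486 by limma). The groups overlapped, and TBI 3 was lowest. With each rat left out in turn, this difference ranged from 0.10 to 0.41. Rpl15 had 14.07, 13.92 and 14.29 after TBI and 14.36, 14.30 and 14.35 after HSC + TBI, a difference of 0.25 (adjusted p = 0.377). These groups did not overlap, with TBI 3 just below the HSC + TBI rats.

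Several probes per gene gave a check within the module. Of the 24 members with more than 1 tested probe, 2 had probes of opposite sign for TBI against control, 1 for HSC + TBI against control and 10 for HSC + TBI against TBI. The probes of a gene lay within a median range of 0.078, 0.063 and 0.11 (log2) in these comparisons. Over all 108 member probes, 94 were above 0 after TBI and 103 after HSC + TBI. RefSeq lists 883 pseudogenes with ribosomal protein names, and 71 of the 75 members have at least 1, up to 36 for Rps2. Probes can share sequence with such copies, so the gene behind a signal is uncertain to that degree.

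The members were also read by their start-site sequence. The 36 members with a run of at least 5 pyrimidines had a median log2 difference of 0.16 after TBI and 0.18 after HSC + TBI. The 23 with a shorter run or a purine at the start had 0.18 and 0.17. Rps19, the gene called in both comparisons with control, had the run of 3 shown above, and Rpl19 one of 12. The 16 members with no promoter entry had medians of 0.056 and 0.21. No test was made between these sets, which rest on the annotated start alone. Rpl13a and Rpl23, whose annotated start is a purine, have a pyrimidine run shortly before it. The sets thus do not separate mRNAs with a TOP tract from those without.

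Other TOP mRNAs and translation factors gave medians of 0.13 and 0.16 against control, with 11 and 12 of 16 genes above 0 and 0 called. The mitochondrial ribosomal proteins, which make up a different ribosome, had medians of 0.038 and 0.13, with 37 and 49 of 63 above 0 and 0 called. By that measure they lay nearer to the median of all tested probes than the cytosolic members after TBI.

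Among 36 ribosome biogenesis genes the medians were 0.13 after TBI and 0.24 after HSC + TBI, with 25 and 31 above 0, and 0 and 2 were called. Wdr12, which acts in large subunit assembly, was at 7.40, 7.35 and 7.35 in the controls and 7.91, 8.06 and 7.96 after HSC + TBI. Rrn3, an initiation factor of RNA polymerase I, was at 4.75, 4.95 and 4.93 in the controls and 5.67, 5.35 and 5.52 after HSC + TBI. Neither overlapped with control, and they rose by 0.61 and 0.64 (adjusted p = 0.0375 and 0.0488 by limma). After TBI the differences were 0.42 and 0.38 and were not called.

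The 14 regulators of ribosome synthesis, mTOR signalling and growth had medians of 0.035 and 0.13, with 10 above 0 in each comparison. After TBI 2 were called higher and 0 lower, and 1 was lower by the adjusted p without the fold minimum. After HSC + TBI 1 was called higher and 0 lower. Sesn2, a stress-induced inhibitor of mTOR complex 1 and itself a p53 target, rose by 0.98 after TBI (adjusted p = 0.0168 by limma) and by 0.91 after HSC + TBI (adjusted p = 0.0367). Myc, a transcription factor that drives ribosome synthesis, was at 8.53, 9.94 and 8.97 in the controls, 10.34, 10.79 and 11.63 after TBI, and 10.62, 9.90 and 10.24 after HSC + TBI. The TBI rats lay above the controls, while HSC + TBI overlapped with them. Myc rose by 1.77 after TBI (adjusted p = 0.0383), and the difference of 1.11 after HSC + TBI was not called (adjusted p = 0.195). HSC + TBI minus TBI was -0.67 for Myc and was not called either (adjusted p = 0.478).

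For scale, 10 of the 11 tested p53 targets were called as higher in each comparison with control, with medians of 1.60 and 1.62. Phlda3, an inhibitor of Akt, rose by 2.55 and 2.50 (adjusted p = 4.92e-04 and 7.27e-04 by limma), and Ccng1, a cyclin induced by p53, by 2.48 and 2.55 (adjusted p = 3.18e-04 and 2.97e-04). None of the 11 was called between HSC + TBI and TBI, where their median was 0.012. The differences of the ribosomal protein genes were a small fraction of these in log2 size.

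**Figure D5:**
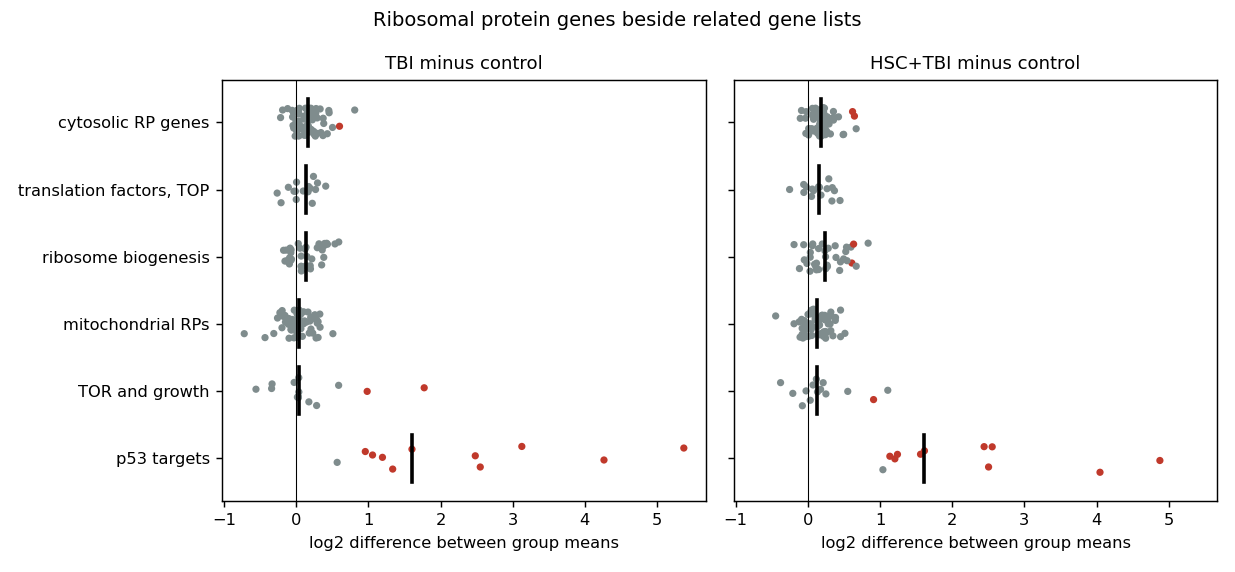
Log2 difference between group means (horizontal axis) for each gene (points, called genes in red) of the cytosolic ribosomal proteins (RP) and 5 related lists (rows), with list medians as black bars, for TBI and HSC + TBI against control (panels). The cytosolic members lay tightly around medians of 0.17 and 0.18, while the p53 targets had medians of 1.60 and 1.62.

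Markers of other cells were read beside the module. Of 12 listed lymphocyte markers 7 were tested, with medians of -0.90 after TBI and -1.32 after HSC + TBI. After TBI 3 of the 7 were called lower and 2 were above 0. After HSC + TBI 2 were called lower and 1 was above 0. Against control 0 were called higher, and 1 was called higher between HSC + TBI and TBI. Cd79b, a B cell receptor chain, was above background on all control arrays and on no irradiated array. The bound on each irradiated array was its dimmest probe above background, or Cd79b itself where brighter. With these bounds Cd79b was at least 4.97-fold lower after TBI and at least 2.90-fold lower after HSC + TBI. Since Cd79b passed the filter through the control group alone, no test result is drawn from it. Cd2 and Cd3g also passed through the controls alone. The 2 calls after HSC + TBI were Cd3g and Cd79b, and the calls after TBI include Cd2 and Cd79b. Cd2 was the marker called higher between HSC + TBI and TBI. No test result is therefore drawn from the calls of these 3 markers. The 8 macrophage markers had medians of 0.51 after TBI and -0.60 after HSC + TBI, with 0 called in either. The log2 of their summed signals was 15.89 to 16.47 in the controls, 15.91 to 16.84 after TBI and 15.38 to 15.53 after HSC + TBI. The median of the ribosomal protein genes was above 0 in both groups, while that of the macrophage markers was above 0 after TBI and below 0 after HSC + TBI. The part of these cells in the module's differences was not tested.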

How the data were processed

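Liver RNA of 9 rats was read on single-colour Agilent arrays, 1 per rat. Per the file headers, the authors obtained spot intensity values and the software's quality flags (well above background, outlier, saturated, here treated as other values deposited by the authors) with Agilent Feature Extraction 10.7.3.1. The authors also deposited log2 values per probe, normalized by quantiles, which served as an alternative and differed from the values used here by a median of 0.029 to 0.032 per array.

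Processed signals below 1 were raised to 1 and log2 values taken, leaving out outlier spots (84 to 115 of 43379 per array). Quantile normalization across the 9 arrays used limma 3.58.1 (R 4.3.3), and the mean of its spots gave each of 41012 probes a value. A probe was above background where more than 0.5 of its spots carried that flag. Of the probes, 16968 were named by RefSeq accession (GRCr8), and each gene was read from its brightest tested probe. The 3 group means were fitted in 1 model on 25369 probes by lmFit and eBayes, with p-values adjusted over all of them, and a probe was called at an adjusted p under 0.05 and at least 1.5-fold. The fit was tested on simulated data.

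The members, lists, tests and alternatives were chosen with earlier results of these data known. Named members are those called, the 5 with the largest difference in each comparison, the paralogs with their parents, and Rpl5, Rpl11, Rpl23, Rps3, Rps6 and the stalk genes. Rps19bp1 and Rpl26, which the rule also names, had no matched probe. A list of ribosomal proteins under other names is not reported here. Alternatives were other scalings and background correction, filters, outlier spots kept, other fits and tests, other probe rules and each rat left out. Labels number the rats but do not pair them, and the number of arrays limits the precision: an exact two-sided permutation test of 3 against 3 rats cannot go below 0.1.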

Additional observations from a re-analysis of the deposited data

How the results depend on the processing

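Settings other than leaving out a rat moved 3 results. Under the 75th percentile shift the median log2 difference of the ribosomal protein genes was 0.39 for HSC + TBI against control and 0.20 for HSC + TBI against TBI, against 0.18 and 0.020. With no minimum fold, 3 members in place of 1 were called for TBI against control. All other settings kept each median within 1 SD of the rats' module medians and each count within 1.5 times. With each rat left out in turn, the called members ranged from 0 to 2 for TBI against control, from 0 to 3 for HSC + TBI against control and from 0 to 0 for HSC + TBI against TBI. In the same order the lowest and highest medians were 0.13 and 0.22, then 0.16 and 0.24, and last -0.0082 and 0.050. For TBI against control the count was 0 without control 3 or TBI 3 and 2 without control 1, and for HSC + TBI against control it was 0 without control 2, control 3, HSC + TBI 1 or HSC + TBI 2 and 3 without control 1. The counts of members without overlap when control 1 or TBI 3 is left out were chosen after seeing the data. Fewer rats also lower the power of the test, and the cause of these changes was not tested further.

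With the replicate number as a block, 1, 2 and 0 members were called in the order above, and the medians of 0.17, 0.18 and 0.020 did not move. The numbers were not taken to pair the rats, since not every pair's correlation was over 0.1: the correlations of same-numbered rats' deviations from the group means were 0.19, 0.12 and 0.098 for control and TBI and between -0.14 and 0.015 for the other pairs of groups, and 5 of the 9 rats were most like a rat of their own number. With the slide as a random block (within-slide correlation -0.327) the counts were 1, 3 and 0.

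Among the named genes no called difference changed direction under any setting run. Of their values under alternatives, 1528 kept direction and call, 10 lost a call, 8 gained one and 38 uncalled values changed sign.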
